A study of Drosophila melanogaster with 96 samples.

Results

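The fly circadian clock was followed in warmth without light cues, in 24 of the 96 head RNA-seq libraries of the series. These are all libraries labelled 29 °C and constant darkness (DD), taken every 4 h at hours 0, 4, 8, 12, 16 and 20 of days 4 and 5, with 2 biological replicates at each of the 12 time points. The flies were adult Drosophila melanogaster of the ISO1 strain, labelled male, and polyadenylated RNA of whole heads was read. The comparison groups were sampled in the same way, with 24 libraries each, at 18 °C and 25 °C in darkness and under a cycle of light and darkness at 25 °C, called the light-dark cycle. No light-dark cycle was sampled at 29 °C, so temperature and light differ together between 29 °C in darkness and that cycle. The labels do not say how days are counted, when darkness began, or how hour 0 relates to lights on.

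In the fly clock, the activators Clk and cyc switch on per and tim, whose proteins later enter the nucleus and block that activation. Interlocked loops through vri, Pdp1 and cwo shape the rhythm, and cry encodes the blue-light photoreceptor that resets it. In darkness the loop runs on its own timing, and in whole heads the rhythms of many tissues add up. Bulk values cannot tell a change in RNA per cell apart from a change in the share of a cell type.

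At 29 °C, library totals ran from 18.2 to 30.5 M counts (1 M is 1e+06), with a median of 21.7 M. Levels are given as CPM, the count per 1e+06 counts of the library. Eye, neuronal and glial markers were present in every library. Of the 6 accessory gland genes examined, none exceeded 0.186 CPM. The yolk protein genes Yp1, Yp2 and Yp3, which are mainly expressed in females, summed to 21593 CPM at the lowest, 35793 at the median and 50762 CPM at the highest, levels that go against a label of males only. The dosage compensation RNAs roX1 and roX2, which are expressed in males, summed to 413 to 709.6 CPM over the same libraries. The 3 chorion and vitelline membrane genes examined, which mark the ovary, did not exceed 0.117 CPM. On day 5 the yolk protein sum was 30889 ± 5931 CPM, against 40739 ± 7853 CPM on day 4 (SD, n = 12 each).

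A set of 8 libraries stood apart at 29 °C. It held replicate 2 at hours 0, 8 and 16 of day 4, replicate 2 at hour 0 of day 5, and both replicates at hours 8 and 16 of day 5. The set was chosen after seeing the data, from the labels whose 10 summed photoreceptor markers were under 0.9 of the median both at 25 °C and at 18 °C in darkness; the 29 °C values were not used. At 29 °C the same 8 labels gave the 8 lowest sums, 65267 ± 4837 CPM (SD, n = 8), against 88254 ± 3883 CPM in the other 16 libraries, and the groups did not overlap. Between these 8 libraries and the other 16, 4113 genes (38.4%) differed at an adjusted p of 0.05 (edgeR), 1996 (18.7%) higher and 2117 (19.8%) lower in the 8. All 19 phototransduction genes were lower in the 8 libraries, and 77 of 84 cytosolic ribosomal protein genes were higher. The phototransduction list holds every photoreceptor marker used to choose the labels except chp, so its count largely repeats those markers. The 8 libraries are 2 of 4 at hour 0, 3 of 4 at hour 8 and 3 of 4 at hour 16, and none at hours 4, 12 and 20. The labels give no batch that matches them, and their part in the results was not tested beyond the values given with and without them.

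**Figure D1:**
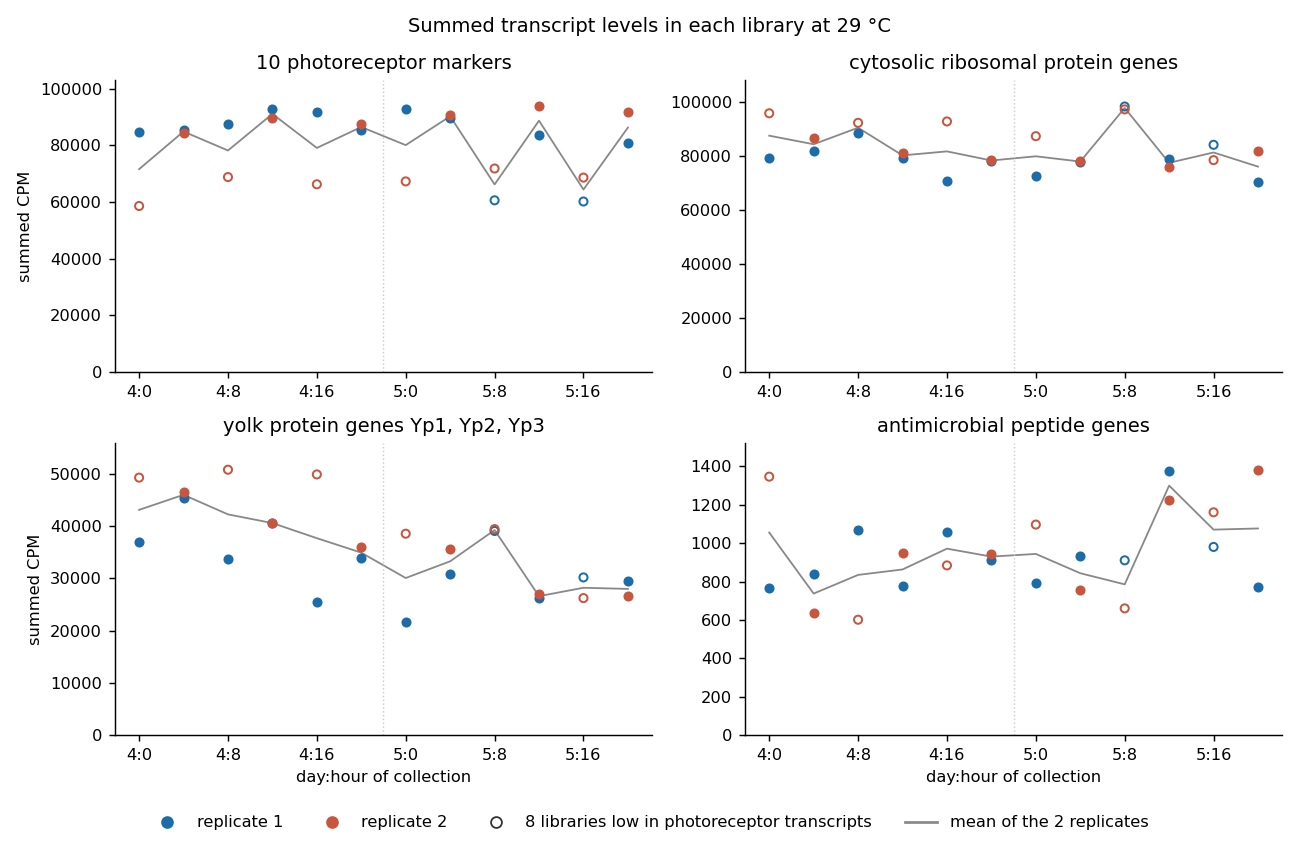
Summed CPM of 4 gene groups in each of the 24 libraries at 29 °C, against day and hour of collection. Blue and red are replicates 1 and 2, open points are the 8 libraries low in photoreceptor transcripts, and the line is the mean of the 2 replicates. Open points lie lowest in the photoreceptor panel, from 58596 to 71819 CPM, while the other 16 libraries run from 80861 to 93693 CPM.

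The first question was which transcripts kept a daily rhythm at 29 °C. A 24 h cosine and sine were fitted to the 24 libraries beside a shift between the days, and both terms were tested together (quasi-likelihood test of edgeR, at an adjusted p of 0.05 by Benjamini and Hochberg over 10700 genes). With this test 9 genes were called, 0.0841% of those tested, and 808 genes (7.55%) had an unadjusted p under 0.05. The called genes were CG34134, Cyp4d21, to, CG5953, CG33965, Ugt35B1, CG10973, cry and CG17777. Their median amplitude, how far the fitted curve climbs above its mean on the log2 scale, was 0.28, a 1.48-fold rise from trough to peak. A fit of replicate 2 alone, with its own filter on low counts, called 5 genes, and one of replicate 1 alone called 1. Leaving out both libraries of 1 time point gave 3 to 15 calls. There were 3 without hour 20 of day 4 or hour 8 of day 5, 5 without hour 12 or hour 20 of day 5, and 15 without hour 16 of day 5. Only CG34134, Cyp4d21 and to were called in all 12 of these fits.

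CG34134 (FBgn0083970; 2L, 8190297 to 8190781, minus strand) had the lowest p-value. Its 24 libraries ran from 64.9 through a median of 127.6 to 188 CPM. The hourly means were 165 ± 18.6 CPM at hour 0, 157 ± 18.9 at hour 4, 109 ± 15.1 at hour 8, 88.7 ± 18.6 at hour 12, 90.5 ± 5.01 at hour 16 and 145 ± 13.4 CPM at hour 20 (SD, n = 4). Every library at hour 0 (148 to 188 CPM) lay above every library at hour 12 (64.9 to 106 CPM). The fitted amplitude was 0.51 ± 0.05 (SE), a 2.04-fold rise, with a peak at hour 0.809 ± 0.394 (edgeR, adjusted p = 4.68e-05). The peak lay at hour 0.771 on day 5 alone and at hour 0.885 on day 4 alone. Its level, phase and spread are shown first in the plot of the called genes.

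**Figure D2:**
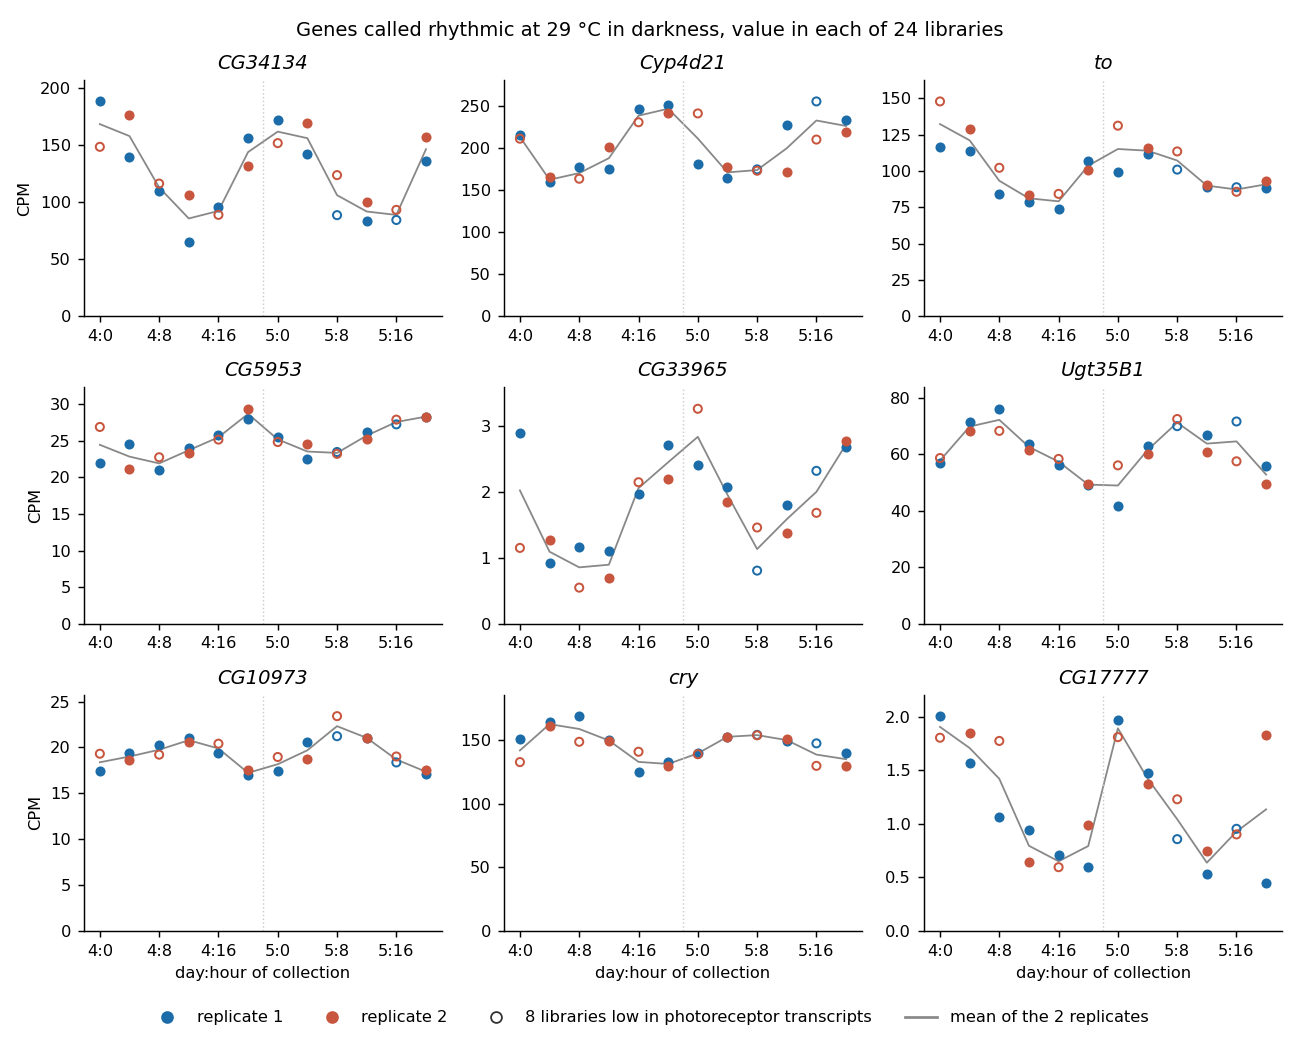
CPM of the 9 genes called rhythmic at 29 °C in each of the 24 libraries, against day and hour of collection. Blue and red are replicates 1 and 2, open points are the 8 libraries low in photoreceptor transcripts, and the line is the mean of the 2 replicates. CG34134 lies at 148 to 188 CPM at hour 0 and at 64.9 to 106 CPM at hour 12 on both days.

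A pair of called genes are known from the fat body of the head. Cyp4d21 (FBgn0031925; 2L, 7605600 to 7607701, plus strand) encodes a cytochrome P450 also known as sxe1. It was lowest at hour 4, with 159.6 to 178 CPM, and highest at hours 16 and 20, with 210.4 to 256 and 219 to 252 CPM. The amplitude was 0.28 ± 0.03 (SE) with a peak at hour 18.5 ± 0.465 (adjusted p = 0.000478). The gene to, or takeout (FBgn0039298; 3R, 25240180 to 25241668, plus strand), encodes a secreted protein linked to feeding and male courtship. It had 112 to 129 CPM at hour 4 and 74.0 to 88.9 CPM at hour 16, with no overlap, and its amplitude of 0.30 ± 0.04 came with a peak at hour 2.06 ± 0.499 (adjusted p = 0.000971). Of the 6 fat body markers, 4 had an unadjusted p under 0.05, against 7.55% of all genes. Lsp2, a storage protein gene, had the largest amplitude of these, 0.95 ± 0.21 with a peak at hour 2.87 ± 0.83, but ranged from 8.30 to 142 CPM and was not called (adjusted p = 0.171).

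Ugt35B1 (FBgn0026314; 3R, 11168503 to 11170246, minus strand), a UDP-glycosyltransferase of the kind that conjugates small molecules with sugars, was highest at hour 8. It had 68.2 to 76.0 CPM at hour 8 and 49.1 to 55.9 CPM at hour 20. The amplitude was 0.22 ± 0.04 (SE) with a peak at hour 8.70 ± 0.639 (adjusted p = 0.0293). CG10973 (FBgn0036306; 3L, 12753239 to 12754774, minus strand) peaked near it, at hour 9.58 ± 0.642, with an amplitude of 0.13 ± 0.02. Its libraries at hour 8 had 19.2 to 23.4 CPM, those at hour 20 had 17 to 17.6 CPM, and it overlaps CG10984 on the other strand. CG5953 (FBgn0032587; 2L, 16508078 to 16532877, minus strand) moved with Cyp4d21, with 28.0 to 29.4 CPM at hour 20, 21.1 to 23.5 CPM at hour 8 and a peak at hour 18.7 ± 0.579. It differed from CG10973 in the hour of its peak more than in the size of its rhythm, with an amplitude of 0.16 ± 0.02.

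The 2 remaining called genes outside the clock list were faint. CG33965 (FBgn0053965; 3L, 1232882 to 1234015, plus strand) averaged 1.80 ± 0.762 CPM (SD, n = 24) and had the largest amplitude of the 9, 0.72 ± 0.11 (SE), with a peak at hour 20.8 ± 0.569. CG17777 (FBgn0040900; X, 2186855 to 2187741, plus strand) averaged 1.19 ± 0.522 CPM, with an amplitude of 0.69 ± 0.12 and a peak at hour 2.21 ± 0.69. At hour 20 of day 5 its replicates differed by more than its fitted rhythm, with 0.446 CPM in replicate 1 and 1.83 CPM in replicate 2. In all 9 genes the 4 libraries nearest the fitted peak lay above the 4 libraries 12 h away, as did those of 16% of all tested genes.

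Among the 8 core clock genes, cry was called and 6 had an unadjusted p under 0.05, against 7.55% of all genes. The photoreceptor gene cry (FBgn0025680; 3R, 19212154 to 19215442, plus strand) had 149 to 169 CPM at hour 8 and 130.1 to 140.4 CPM at hour 20. Its amplitude was 0.13 ± 0.02 (SE) with a peak at hour 6.89 ± 0.66 (edgeR, adjusted p = 0.0339). That call held in 2 of the 12 fits that left out a time point, where the adjusted p ran from 0.0324 to 0.221. The gene overlaps lncRNA:CR46393 on the same strand and vib on the other, so its level may include or lack some of their reads.

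The repressors per and tim were highest at hour 12. The gene per (FBgn0003068; X, 2685580 to 2692780, plus strand, overlapping dyw on the other strand) had 79.2 to 103 CPM at hour 12 and 54.9 to 70.0 CPM at hour 0. Its amplitude was 0.26 ± 0.06 with a peak at hour 15.0 ± 0.845, and it was not called (adjusted p = 0.17). The gene tim (FBgn0014396; 2L, 3493986 to 3508119, minus strand) had 367 to 466 CPM at hour 12 and 248 to 340.1 CPM at hour 0, with an amplitude of 0.17 ± 0.06 and a peak at hour 15.9 ± 1.31 (adjusted p = 0.596). The hourly means of tim went up and down at successive time points, with 295, 337, 283, 406, 352 and 385 CPM from hour 0 to hour 20. Hours 0, 8 and 16, each lower than the sampled hours on either side, are those that hold the 8 libraries low in photoreceptor transcripts. In these libraries tim was lower by a log2 difference of -0.38 and per by -0.35.

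In the interlocked loop, vri (FBgn0016076; 2L, 5288944 to 5311223, plus strand), which encodes a repressor of Clk, came closest to the threshold. It had 163 to 197 CPM at hour 12 and 117 to 147 CPM at hour 0, with an amplitude of 0.19 ± 0.04 and a peak at hour 14.4 ± 0.719 (adjusted p = 0.0701). The repressor gene cwo peaked at hour 14.5 ± 1.0 with an amplitude of 0.11 ± 0.03, and the activator gene Pdp1 at hour 17 ± 1.09 with an amplitude of 0.12 ± 0.03. For Clk the 24 libraries ran from 21.0 to 36.2 CPM with a fitted amplitude of 0.10 ± 0.06, and for cyc from 22.3 to 27.0 CPM with 0.01 ± 0.03. No rhythm of either activator was detectable here (adjusted p = 0.787 and 0.986).

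With a term for the 8 libraries in the model, an alternative added after seeing the data, 4 core clock genes were called, namely per, vri, tim and cry. Their amplitudes were then 0.28 ± 0.03, 0.20 ± 0.03, 0.19 ± 0.03 and 0.13 ± 0.02 (SE). With the 8 libraries left out, 2 of the 8 clock genes were called, cry and per.

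**Figure D3:**
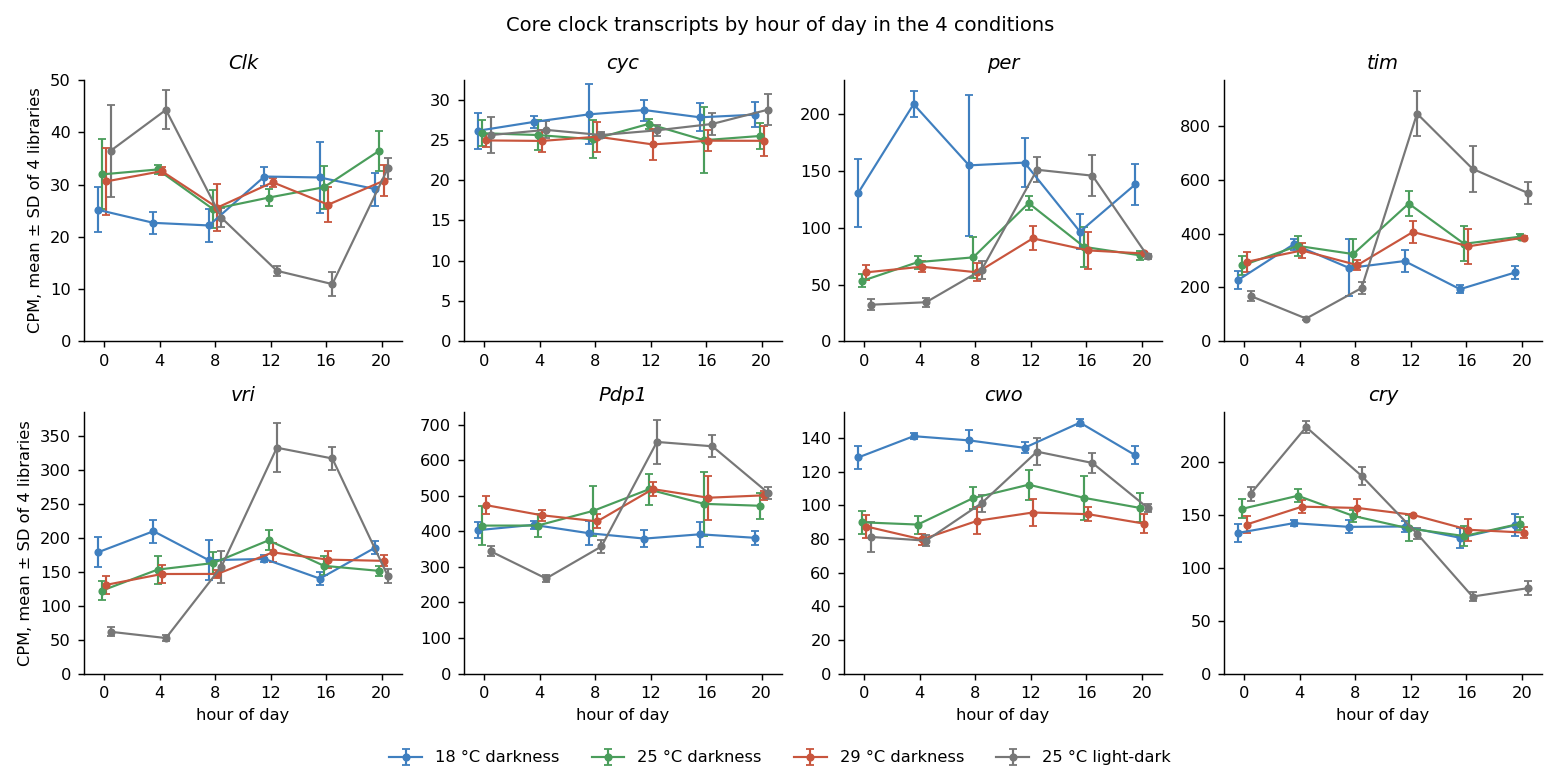
CPM of the 8 core clock genes by hour of day, as the mean ± SD of 4 libraries, in darkness at 18 °C (blue), 25 °C (green) and 29 °C (red) and under light-dark cycles at 25 °C (grey). At 29 °C per averaged 90.7 CPM at hour 12 and 60.7 CPM at hour 0, a smaller swing than in the light-dark cycle, where it had 151 and 32.2 CPM.

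The same term raised the number of rhythmic genes to 72 (0.673% of those tested), which included all 9 called without it. Without the 8 libraries, 13 genes were called, of which 6 were among the 9. The members named next were picked from the 72 after their values were seen, apart from those that the naming rule already covered. Some of the 72 overlap each other on the same strand and may share reads, so they may not be separate rhythms. These are inaF-A, inaF-B and inaF-C, fit and asRNA:CR45046, and tim and snoRNA:Or-CD16. Among the 72, gol, which encodes a ubiquitin ligase of the RING type, and Usp8, which encodes a deubiquitinating enzyme known in flies to act on the CLK protein, had the lowest p-values. Usp8 had 114 to 139.9 CPM at hour 12 and 67.0 to 79.4 CPM at hour 0, and gol had 195 to 278 CPM and 103 to 135 CPM at these hours. Both were lower in the 8 libraries, by log2 differences of -0.37 for Usp8 and -0.53 for gol. Their amplitudes with the term were 0.33 ± 0.03 and 0.40 ± 0.04 (SE), at hours 14.2 ± 0.36 and 14.1 ± 0.348. Without the term neither was called (adjusted p = 0.0626 and 0.128). Slob, whose protein binds a potassium channel, followed the same hours, with an amplitude of 0.26 ± 0.03 and a peak at hour 13.7 ± 0.491.

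Between hours 2 and 8 lay 34 of the 72 peaks, where 29.7% of all tested genes peaked in this model. These 34 genes were of mixed kinds. Among them were the yolk protein gene Yp3 (peak at hour 4.89 ± 0.728), the storage protein gene Lsp2 (2.62 ± 0.625), the odorant-binding protein gene Obp99a (4.26 ± 0.636) and fit (4.76 ± 0.659), all 4 higher in the 8 libraries by log2 differences of 0.37, 0.90, 0.44 and 0.36. The eye gene inaC, a protein kinase C of phototransduction, peaked at hour 4.22 ± 0.682 and was lower in the 8 libraries by -0.60. Genes of mitochondria were also among them, such as kdn, the citrate synthase gene (5.15 ± 0.606), and the respiratory chain genes COX5A (4.64 ± 0.677), UQCR-Q (5.32 ± 0.792) and ND-B14.7 (5.08 ± 0.803). The aminoacyl-tRNA synthetase genes AsnRS and LeuRS peaked later, at hours 18.4 ± 0.779 and 18.0 ± 0.799.

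Peak hours were not spread evenly over the day. Of the 808 genes with an unadjusted p under 0.05, 147 (18.2%) peaked between hours 4 and 6 and 140 (17.3%) between hours 18 and 20. Over all 10700 genes these shares were 10.3% and 12%. Few peaked between hours 22 and 2, with 22 genes (2.72%) at hours 22 to 24 and 21 (2.6%) at hours 0 to 2. Over all genes these bins were low too, with 5.52% and 4.89%. The 9 called genes lay at hours 0 to 4 (3 genes), 6 to 10 (3 genes) and 18 to 22 (3 genes).

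**Figure D4:**
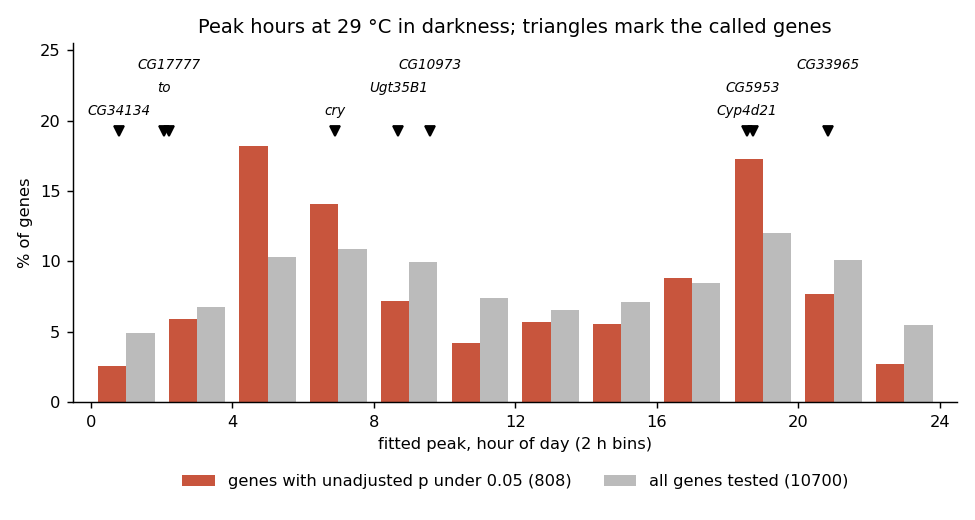
Share of genes by fitted peak hour in 2 h bins at 29 °C, for the 808 genes with an unadjusted p under 0.05 (red) and all 10700 genes tested (grey). Triangles mark the 9 called genes. The red bars are highest at hours 4 to 6 (18.2%) and 18 to 20 (17.3%).

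Functional lists were then described by their counts. None of the 84 cytosolic ribosomal protein genes tested was called, but 15 (17.9%) had an unadjusted p under 0.05, against 7.55% of all genes. All 84 had their fitted peak between hours 0 and 12, 75 of them between hours 2 and 8, where 28% of all genes peaked. The median amplitude of the list was 0.08, against 0.06 over all genes. RpL40, the member with the lowest p-value, had 904 to 994 CPM at hour 8 and 607 to 794 CPM at hour 20, with an amplitude of 0.13 ± 0.04 (SE; adjusted p = 0.405). The summed list averaged 94223 CPM at hour 8, where 3 of the 4 libraries are of the set low in photoreceptor transcripts, and 77283 CPM at hour 20, where none is. With the term for those libraries, 58 of the 84 genes had an unadjusted p under 0.05, against 13.3% of all genes, and 81 peaked between hours 2 and 8. None was called. Nuclear genes of the respiratory chain, a list chosen after its values were seen, had 64 of 66 peaks between hours 2 and 8 and 32 unadjusted p-values under 0.05, and 34 of the 66 were higher and 0 lower in the 8 libraries. Other lists had many fitted peaks in the same window, with 3 of 3 yolk protein genes (2 with an unadjusted p under 0.05), 6 of 8 muscle markers and 26 of 33 proteasome genes, and the muscle and proteasome lists had 0 such p-values. Of these lists 3, 6 and 31 genes were higher in the 8 libraries and 0 were lower. The summed respiratory chain list averaged 15365 CPM at hour 8 and 13363 CPM at hour 20.

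None of the 14 antimicrobial peptide genes was called. Of the 14, 6 (42.9%) had an unadjusted p under 0.05, against 7.55% of all genes. The fitted peaks of 13 lay between hours 12 and 24, as did those of 5328 of all 10700 genes. The median amplitude of the list was 0.26. AttC, an attacin gene, peaked at hour 17.2 ± 1.11 with an amplitude of 0.26 ± 0.08 (SE; adjusted p = 0.46). It had 121 to 158 CPM at hour 16 and 83.1 to 121 CPM at hour 4, and the 2 hours overlapped at the edge. CecA2, a cecropin gene, reached an amplitude of 0.44 ± 0.13, peaking at hour 17.8 ± 1.13 (adjusted p = 0.491). AttC peaked at hour 13.5 in replicate 1 and at hour 19.0 in replicate 2. No gene of this list differed between the 8 libraries and the other 16.

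None of the heat shock genes (16 tested), phototransduction genes (19), clock neuropeptide and receptor genes (15), proteasome genes (33), activity-regulated genes (4) or cuticle protein genes (29) was called. An unadjusted p under 0.05 was found in 7.55% of all genes. At that threshold 1 phototransduction gene and 2 cuticle protein genes passed, and 0 of the other lists. Hsp22, the small heat shock gene with the second lowest p of its list, ranged from 36.4 to 216 CPM across the 24 libraries, with no rhythm detectable (adjusted p = 0.785). Its values were identical to those of CG4456, which overlaps it on the same strand, so the level of either gene alone is uncertain. Of 18 feeding and fasting genes, 4 (22.2%) had an unadjusted p under 0.05. These included FASN1, the fatty acid synthase gene, with an amplitude of 0.19 ± 0.07 and a peak at hour 9.40 ± 1.35, and Thor, the 4E-BP gene, with 0.11 ± 0.04 and a peak at hour 9.47 ± 1.38. Of 78 cytochrome P450 genes, 3 had an unadjusted p under 0.05 and Cyp4d21 was called. Of 16 genes for clock protein kinases, phosphatases and degradation, 2 had an unadjusted p under 0.05, Usp8 and the phosphatase subunit gene wdb. Of 26 mitochondrial genome transcripts 3 did, each of them a tRNA.

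The 2 replicates were next fitted apart, with 12 libraries each. Each of the 9 called genes had an unadjusted p under 0.05 in each replicate alone, with the highest p at 0.009 in replicate 1 and 0.0452 in replicate 2. Their peaks in the 2 replicates lay within 2 h of each other in 9 of 9 genes, as in 19% of all tested genes. Since the genes were called with both replicates, that agreement describes them and is no independent test. A choice in 1 replicate was therefore read in the other, which had no part in that choice. Replicate libraries of a time point may still share a collection. The set of 8 libraries holds both replicates at hours 8 and 16 of day 5, so the replicates are not fully independent. Of 17 genes with p under 0.001 in replicate 1, 8 (47.1%) had p under 0.05 in replicate 2, against 4.59% of all genes. Of 19 genes chosen in replicate 2, 8 (42.1%) passed in replicate 1, against 7.78% of all genes. A gene that passed both thresholds enters both choices, so the 2 shares are not independent.

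Peaks lay within 4 h of each other for 15 of the 17 genes (88.2%) chosen in replicate 1 and 12 of the 19 (63.2%) chosen in replicate 2, against 38.5% of all genes. Amplitudes were smaller where they had not been chosen. Their median was 0.32 in replicate 1 and 0.16 in replicate 2 for the first choice, and 0.36 in replicate 2 and 0.24 in replicate 1 for the second. At a looser choice of p under 0.01, 36 of 169 genes (21.3%) chosen in replicate 1 passed in replicate 2, and 28 of 104 (26.9%) the other way. The replicate numbers also differed in the set of 8 libraries, of which 6 carry replicate 2 and 2 carry replicate 1.

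**Figure D5:**
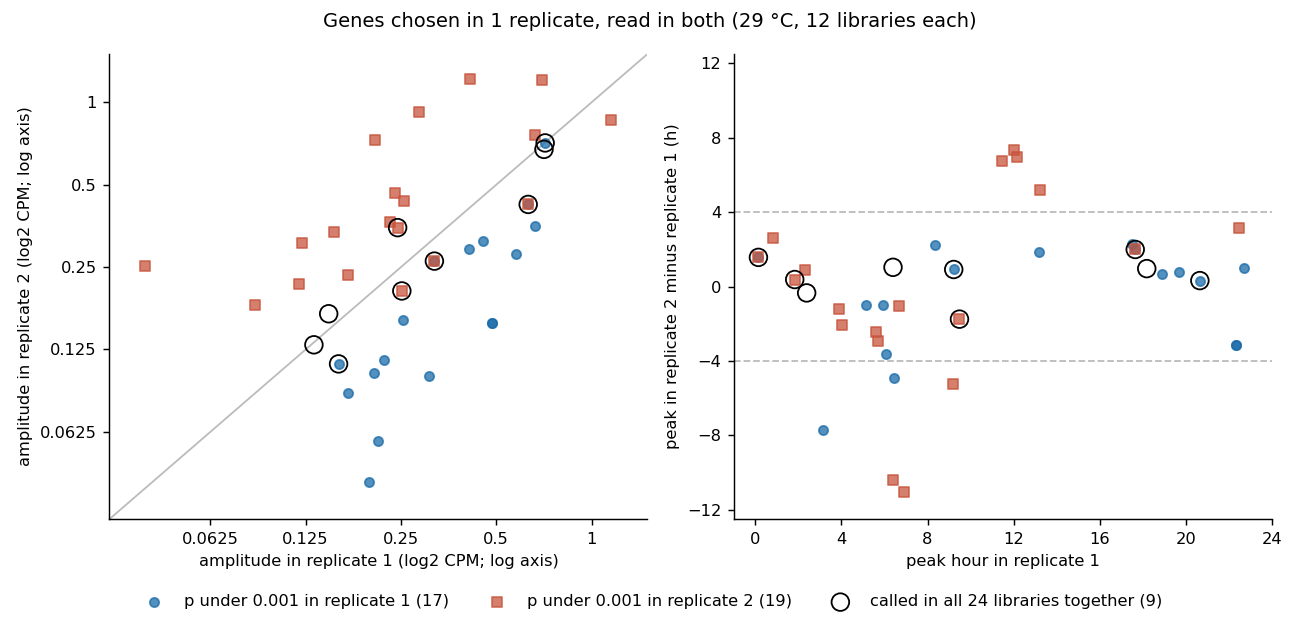
Left, amplitude in replicate 1 against replicate 2 on log axes, for the 17 genes with p under 0.001 in replicate 1 (blue circles), the 19 in replicate 2 (red squares) and the 9 genes called in all 24 libraries (rings). Right, the difference in peak hour between the replicates against the peak in replicate 1, with dashed lines at 4 h either way. All 9 rings lie within 2 h of 0.

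The 2 days were likewise fitted apart. Each of the 9 genes had an unadjusted p under 0.05 on each day alone, and 6 of 9 had peaks within 2 h between the days, as in 22.8% of all genes. Since the genes were called with both days, that agreement describes them and is no independent test. At an adjusted p of 0.05, 3 of the 9 were called on day 4 alone and 0 on day 5 alone. Their median amplitude was 0.23 on day 5 and 0.32 on day 4. For per the amplitude was 0.18 on day 5 and 0.34 on day 4, for vri 0.12 and 0.25, and for tim 0.08 and 0.27. These differences between days were not tested. At hours 8 and 16 the set of 8 libraries holds both replicates of day 5 but only replicate 2 of day 4. In that set the log2 differences were -0.35 for per, -0.18 for vri and -0.38 for tim. The fits of each day did not account for the set, so a change between days cannot be told apart from it. The mean level differed between the days in 20 genes (0.187%), with 9 higher and 11 lower on day 5.

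The rhythms at 29 °C were set beside those of the other conditions, which share no library with it. In 24-library fits of their own, 12 genes were called at 18 °C (0.113%), 21 at 25 °C in darkness (0.198%) and 1389 with light-dark cycles (13.1%). Of the 9 genes called at 29 °C, 2 were also called at 18 °C, 6 at 25 °C and 8 under light-dark cycles. At an unadjusted p under 0.05 the counts were 6 at 18 °C (6.19% of all genes), 8 at 25 °C (4.24%) and 8 under light-dark cycles (25.1%). CG10973 was not called in any of the others. The peak lay within 4 h of that at 29 °C in 3 of 9 genes at 18 °C, in 8 at 25 °C and in 6 under light-dark cycles, against 52.2%, 56.2% and 48.4% of all genes. For cry the amplitude was 0.04 at 18 °C, 0.17 at 25 °C and 0.13 at 29 °C, and 0.86 under light-dark cycles.

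The difference in rhythm was tested in a model of all 96 libraries as the difference of the cosine and sine terms. The size of a difference in rhythm is its length on the log2 scale. That model does not tie libraries with matching labels across conditions, and the counts below moved when they were tied. The 8 low labels were chosen by their photoreceptor sums in the other conditions in darkness. They also had the 8 lowest sums in the conditions not used for that choice, 29 °C in darkness and the light-dark cycle. Between 29 °C and 25 °C in darkness, 0 of 10702 genes (0%) were called in this model by edgeR or by DESeq2, and 236 had an unadjusted p under 0.05. CG34134 peaked at hour 0.832 at 29 °C and at hour 21.6 at 25 °C, a difference of 0.48 that was not called. In this model cry peaked at hour 6.96 at 29 °C and 3.28 at 25 °C, and per at 14.9 and 12.7, and neither difference was called. With the term for the low-photoreceptor labels in each condition, 1 gene was called.

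Between 29 °C and 18 °C in darkness, 13 genes were called (0.121%). CG34134 peaked at hour 0.832 at 29 °C and at hour 17.3 at 18 °C, with amplitudes of 0.51 and 0.55 (difference 0.88, adjusted p = 6.58e-08). Usp8 peaked at hour 14.3 at 29 °C and at hour 3.75 at 18 °C (difference 0.72), and gol at hours 14.3 and 6.72 (difference 0.73). The antisense RNA gene asRNA:CR45046, which overlaps fit and CG34148 on its strand, peaked at hour 5.51 at 29 °C and at hour 15.6 at 18 °C (difference 0.63). Sidpn, a gene of the bHLH family, had an amplitude of 0.08 at 29 °C and 0.56 at 18 °C (difference 0.61). Of the core clock genes, per (0.60, adjusted p = 0.00102) and vri (0.38, adjusted p = 0.000632) were called, and of the fat body genes Cyp4d21 (0.36) and to (0.41). The faint gene CG33965 was called too. Under 8 alternatives the difference stayed called in 8 for CG34134, 7 for Usp8, 7 for asRNA:CR45046, 6 for gol and 6 for Sidpn. The count of 13 was 4 without replicate 1, 4 without replicate 2 and 47 with the term for the low-photoreceptor labels in each condition. It was 68 with the block by day, hour and replicate number.

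Between 29 °C in darkness and the light-dark cycle at 25 °C, 578 genes (5.4%) differed in rhythm. Achl, a gene under clock control, had an amplitude of 0.42 at 29 °C in darkness and 2.59 in the light-dark cycle, with peaks at hours 23 and 22.2 (difference 2.18). CG34134 had amplitudes of 0.51 and 2.43 (difference 2.03), tim 0.17 and 1.67 (difference 1.5), and Ugt35B1 0.23 and 1.38 (difference 1.45). The peak of Ugt35B1 lay at hour 8.71 at 29 °C in darkness and at hour 1.85 in the light-dark cycle. The snoRNA gene snoRNA:Or-CD16 overlaps tim on its own strand, so its reads could be those of tim, and it had amplitudes of 0.23 and 1.66 (difference 1.45). Of the 8 core clock genes, 7 differed, all but cyc. The count of 578 was 255 without replicate 1, 275 without replicate 2 and 961 with the term for the low-photoreceptor labels in each condition. It was 1329 with the block by day, hour and replicate number.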

How the data were processed

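Polyadenylated RNA of fly heads was sequenced in 96 libraries, and the 24 from 29 °C in darkness are described. The deposited values are estimated counts per gene for 17610 genes, of which 40.2% of the nonzero values are not whole. The tests had been planned for whole counts, and each value was rounded first. Per the submitters' processing notes, fastp 0.23.2, HISAT2 2.2.1, featureCounts and Subread 2.0.8 were used; the genome build and the strand setting of the counting are not given in the sources used here. The kit was a directional one, per the labels' protocols. Totals at 29 °C ran from 18.2 to 30.5 M counts.

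In R 4.3.3, genes were filtered with filterByExpr (10700 kept, 99.96% of counts at 29 °C) and scaled by TMM. A 24 h cosine and sine with a day term were tested by the quasi-likelihood test of edgeR 4.0.16 with 20 residual degrees of freedom, with Benjamini-Hochberg adjustment at 0.05. Rhythm differences came from the same test in a model of all 96 libraries with 10702 genes. Levels are CPM computed from the deposited counts with TMM scaling over the 96 libraries. SEs of amplitude and peak are from the delta method. Alternatives used limma 3.58.1 and DESeq2 1.42.0, another normalization, other filters, periods, blocks and covariates, and omitted libraries. Scripts were tested on simulated data.

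Named were all genes called at 29 °C (up to 25), the 8 core clock genes, the 5 largest called differences per comparison with a mean of at least 5 CPM, and up to 3 genes per list with the lowest p. The members and lists were chosen with earlier results of these data known, and genes named outside the rule are said to be so. Symbols and positions are from the BDGP6.54 annotation, in which 133 of 133 genes looked up were found; it may differ from the build of the counts. No pair of libraries held identical values.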

Additional observations from a re-analysis of the deposited data

Results flagged for a closer look

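In 5 of 96 groups of 4 libraries (16 genes at 6 hours), 1 library lay far from the other 3; chance gives about 5% of groups. Ugt35B1 had 41.8 CPM in replicate 1 of day 5 at hour 0, where the other libraries had 56.0 to 58.6 CPM. The same replicate had 71.6 CPM at hour 16, against 56.3 to 58.3 CPM, and 55.9 CPM at hour 20, against 49.1 to 49.5 CPM. CG33965 had 2.19 CPM at hour 20 in replicate 2 of day 4, against 2.67 to 2.76 CPM. CG10973 had 20.6 CPM at hour 12 in replicate 2 of day 4, with 21.0 CPM in the other 3 libraries.

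Rhythm differed between conditions, by the test of the difference itself, in several named genes between 29 °C and 18 °C in darkness, per, vri, Cyp4d21, to and CG33965 among them. The 5 largest differences among called genes with a mean of at least 5 CPM were 0.884 for CG34134, 0.729 for gol, 0.724 for Usp8, 0.633 for asRNA:CR45046 and 0.607 for Sidpn. For 29 °C in darkness against light-dark cycles at 25 °C, the 5 largest were 2.18 for Achl, 2.03 for CG34134, 1.5 for tim, 1.45 for Ugt35B1 and 1.45 for snoRNA:Or-CD16.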

How the results depend on the processing

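The count of rhythmic genes, 9, was 52 with the DESeq2 likelihood ratio test, 24 with a replicate block, 3 on day 4 alone, 0 on day 5 alone and 4 at a period of 22 h. It was 293 with 1 residual factor, 870 with 2, 72 with the term for the 8 libraries, 124 with that term and the block, 195 with a yolk protein covariate, 147 with a photoreceptor covariate and 15 in the model of all 96 libraries. Leaving out a replicate gave 1 to 5 and leaving out a time point 3 to 15. The core clock count, 1, was 0 without a low-count filter, on day 4 alone, on day 5 alone, at 22 h, at 23 h, in the model of all 96 libraries and without either replicate. It was 2 with the block, at 25 h, at 26 h, without the 8 libraries and with the yolk covariate, 3 with DESeq2, 4 with the term for the 8 libraries (4 with the block added), 5 with 1 residual factor or the photoreceptor covariate and 6 with 2 factors. Leaving out a time point gave 0 to 2. The residual factors, the term and the covariates were estimated or chosen on these libraries.

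Differences in rhythm were called in 18 genes between 29 °C and 25 °C, 68 between 29 °C and 18 °C and 1329 between 29 °C in darkness and the light-dark cycle with a block by day, hour and number. With the term for the low labels these were 1, 47 and 961. Without a replicate they were 0 to 2, 4 to 4 and 255 to 275. The unfiltered model of 96 libraries could not be fitted, and a filter of 10 counts in total was used instead. The share of genes chosen in 1 replicate that passed in the other, pooled over both choices with genes chosen in both counted in each, was 44.4%, and 23.4% at a threshold of 0.01. The correlations that follow are between residuals, the log2 CPM left after the fitted mean, rhythm and day terms were removed. They are not correlations of the levels themselves. Residuals of same-numbered libraries of 29 °C correlated at 0.054 on average (lowest -0.334), against -0.132 for different numbers. Libraries of 29 °C and of another condition with the same day, hour and number correlated at 0.217 with 25 °C in darkness (lowest -0.0062), 0.216 with 18 °C (lowest 0.042) and 0.214 with the light-dark cycle (lowest 0.012). Since not every pair was over 0.1, the block was not used for the values reported, but the shared set of 8 low labels shows that the labels are tied in part. A library of 29 °C correlated best with its own number in 4 of 24 cases at 25 °C in darkness, 3 at 18 °C and 3 under light-dark cycles. With the block, vri was called at 29 °C (adjusted p = 0.0274).

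Of 640 amplitudes and differences of named genes under alternatives, 519 kept their side of the threshold, 93 lost the call and 28 gained it. Amplitudes and lengths have no sign. The direction of the fitted curves and of the difference terms was compared instead, and 0 were reversed. For amplitudes this was counted only where the main fit or the alternative called the gene. The cause was not tested.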
